A study of Rattus norvegicus with 8 samples.

Results

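The genes described here build, regulate and anchor the actin cytoskeleton, and were taken as a named set of 56 genes that covers actin itself, the proteins that cross-link, cut, cap and branch its filaments, the tropomyosins and myosin chains, the linkers to the membrane, the plaque proteins of focal adhesions and the small GTPases that steer them, with their effectors. They were chosen by gene symbol, though with earlier results of these data known. Transcripts were measured in primary cultures of rat semicircular canal duct (SCCD) epithelium, a sheet of the inner ear that absorbs sodium, grown from neonatal Wistar rats on permeable supports. One group received 100 nM dexamethasone, a synthetic glucocorticoid (n = 4), and the other was left untreated (control, n = 4), with 1 array per sample. The exposure time of the array cultures is not given in the sources used here. No source says that the arrays of a group came from separate animals or batches of canals, so the p-values measure only the spread between these samples, which may be technical.

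Of the 56 genes, 48 had at least 1 probe set (the group of oligonucleotides that reads 1 transcript) annotated to that gene alone, and all 48 passed the filter for a mean signal of at least 100. Another 6 genes (Actb, Myl6, Cfl1, Dstn, Tmsb10 and Actr3) were read only by probe sets that also match a second gene or a pseudogene, and 2 (Vil1 and Fscn1) were not analysed here because no probe set was matched to them. Where a gene had several probe sets, the strongest stood for it. The array held 15866 probe sets that are not controls, with 10417 genes that had a probe set of their own.

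Actin is a globular protein that assembles into filaments, and its turnover is set by proteins that bind the monomer, nucleate new branches, cap filament ends or cut the filament. Tropomyosins and caldesmon lie along the filament and, with myosin light and heavy chains, govern contraction, while ezrin, radixin and moesin tie filaments to the membrane. In focal adhesions, integrins are joined to actin through talin, vinculin and paxillin, and the GTPases RhoA, Rac1 and Cdc42 direct the whole system. In epithelia such as the SCCD the cortical actin ring also underlies the cell junctions, and glucocorticoids are known to act on actin organisation in several epithelial and mesenchymal cells.

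The region in front of the start of transcription is shown for Pxn and Baiap2, because these were the genes of the set whose transcripts passed the test, and a short stretch for Actg1 and Cnn2, because of the genes with a window they alone carried a CArG box, the element bound by serum response factor in many cytoskeletal genes. The sequences are those of RefSeq for the rat assembly GRCr8, written 5′ to 3′ on the strand of the gene. RefSeq gave windows of 250 bases before to 50 bases after the start for 47 of the 56 genes, 53 windows in all. The Pxn stretch (chr12:46768698-46768947, minus strand) precedes the upstream one of its 2 starts, which lie 18 bases apart. The Baiap2 stretch (chr10:105721306-105721555, plus strand) has TATAAA in capitals, 75 to 70 bases before the start. The stretches of Actg1 (chr10:106121022-106121051, minus strand) and Cnn2 (chr7:10370364-10370393, minus strand) have the CArG box in capitals, 90 to 81 and 71 to 62 bases before the start.
Pxn: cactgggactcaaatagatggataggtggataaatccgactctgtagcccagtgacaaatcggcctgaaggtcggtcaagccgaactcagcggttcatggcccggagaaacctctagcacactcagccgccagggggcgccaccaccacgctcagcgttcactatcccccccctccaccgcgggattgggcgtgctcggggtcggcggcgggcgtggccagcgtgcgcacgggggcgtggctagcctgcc
Baiap2: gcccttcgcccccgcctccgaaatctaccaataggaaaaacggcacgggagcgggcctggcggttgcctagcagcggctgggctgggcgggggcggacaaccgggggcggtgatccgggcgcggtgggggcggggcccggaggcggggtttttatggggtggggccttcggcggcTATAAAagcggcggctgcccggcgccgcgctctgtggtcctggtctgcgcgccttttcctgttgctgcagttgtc
Actg1: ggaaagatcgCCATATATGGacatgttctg
Cnn2: cgcttccacgCCTTATAAGGgcatttgccc

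Each window of 300 bases was read on both strands for 4 motifs. The CArG box was in 2 of the 53 windows (3.77%), against 1.64% of 33469 windows of all genes. AGAACA, which is part of the glucocorticoid response element, was in 5 windows (9.43%), against 20.7% of all. TATAAA was in 4 windows (7.55%), against 14.2%. GGGCGG was in 40 windows (75.5%), against 33.1%, and 4 copies stood in the Baiap2 stretch. Neither Pxn window held any of the 4 motifs. These matches describe the letters of the windows and were not tested against the array values.

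As a check of the labels, 7 of 8 tested genes known to respond to glucocorticoids rose with dexamethasone, against 1.88% of all probe sets. The remaining gene was lower (log2 fold change -0.44), at an unadjusted p under 0.05 in limma without passing the adjustment. It passed as lower when the division of the arrays described below was a block in the fit. All 13 epithelial markers with a probe set lay above the level of genes of other tissues on all 8 arrays, with summed signals of 56240.0 to 60963 with dexamethasone and 55917 to 68062 in control, and 1 of them, the keratin Krt18, fell (log2 fold change -0.47, adjusted p = 0.0300, limma). That level is the 95th percentile, on each array, over probe sets of 61 genes that belong to liver, pancreas, testis and other organs, and ran between 121 and 202. Markers of fibroblasts were present too, with 7 of 12 above the level on all arrays, and their summed signal was 18780 to 24089 with dexamethasone and 21211 to 24357 in control. Of 11 smooth muscle markers 3 were above the level on all arrays and 6 on none, the defining ones Myh11 and Des among the 6. The sums of these markers were 5178 to 5955 with dexamethasone and 5779 to 6639 in control, most of it Tagln, a gene of the set. Of 6 endothelial markers 1 was above the level on all arrays and 3 on none, Pecam1, Vwf and Emcn, and their sums were 2932 to 3534 with dexamethasone and 1114 to 1417 in control, most of it Kdr. The endothelial markers did not move as one, since of 3 tested 1 passed as higher and 1 as lower. Their log2 fold changes ran between -1.96 and 2.00. Of 10 macrophage markers 1 was above the level on all arrays and 5 on none, Cd68 and Ptprc among the 5, and their sums were 1203 to 4648 with dexamethasone and 933 to 1533 in control, with 3415 from Lyz2 on dexamethasone replicate 1. Acta2, Tagln and Cnn1 belong both to the list of smooth muscle markers and to the set described here. The part of other cell types in the values below was not tested, and fewer cells of a type cannot be told apart from less RNA per cell. As deposited, replicates 1 and 2 of both groups had a trimmed mean of 500 and replicates 3 and 4 lower ones (202 to 336), so each array was brought to 500 by 1 factor. Replicates 1 and 2 are called the at-target arrays here, and replicates 3 and 4 the below-target arrays. Control replicate 3 needed the largest factor, 2.48.

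The ratio of the 3′ to the 5′ signal of beta-actin, a sign of RNA length on arrays primed from the 3′ end, differed between the groups. It was 7.72, 6.81, 8.07 and 6.17 with dexamethasone. In control it was 8.59, 8.10, 13.7 and 9.60. Every control array lay above every dexamethasone array, by a narrow margin at the nearest pair (two-sided exact permutation test over the arrays, p = 0.0286, which is as low as 4 against 4 can go). For GAPDH the ratio was 3.18, 2.58, 2.60 and 2.14 with dexamethasone and 2.47, 2.10, 3.79 and 2.59 in control, and the groups overlapped (exact p = 0.971). A fit with the beta-actin ratio as a covariate was made. Because the ratio separated the groups, this fit cannot tell treatment and ratio apart, and a call lost in it cannot be assigned to either. The part of RNA length in the results was not tested otherwise. Values of this fit are given for genes of the set whose strongest probe set passed a fit named here, and for 7 related genes described later. None are given for Krt18 or the glucocorticoid genes above.

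**Figure D1:**
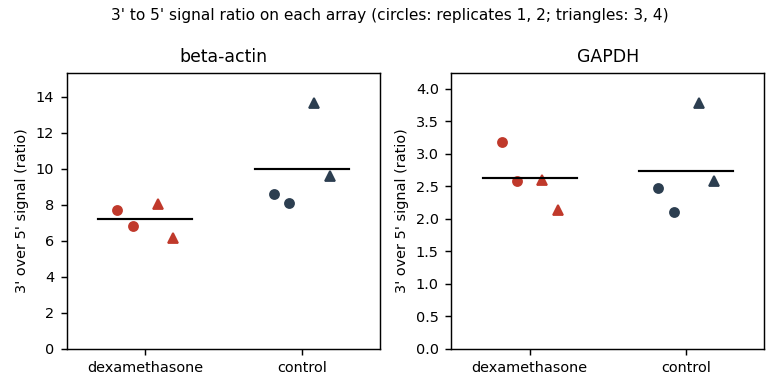
Ratio of 3′ to 5′ signal (no unit) for the beta-actin and GAPDH control probe sets on each array, dexamethasone left and control right, with a bar at the mean of 4 arrays. All control points for beta-actin lie above all dexamethasone points, with control replicate 3 at 13.7, whereas the GAPDH points overlap.

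Of the 48 genes, 1 rose (Pxn, the adhesion scaffold paxillin) and 1 fell (Baiap2, the Rac1 and Cdc42 effector IRSp53), and 46 did not pass the test. Among all 10368 probe sets tested, 279 passed (2.69%), 195 of them higher (1.88%) and 84 lower (0.81%), in limma's moderated test with Benjamini-Hochberg adjustment at 0.05 over all of them. The median log2 fold change was -0.025 over the 48 genes and -0.023 over all probe sets. The median size of the log2 fold change, without its sign, was 0.11 over the genes and 0.16 over all. A fold of 1.3 (0.38 on the log2 scale), the limit the study used for physiological relevance, was passed by 6 of the 48 genes, against 14.9% of all probe sets. For 18 genes the whole 95% confidence interval of the fold change lay inside 1.3-fold, and for the others the interval reached beyond it.

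**Figure D2:**
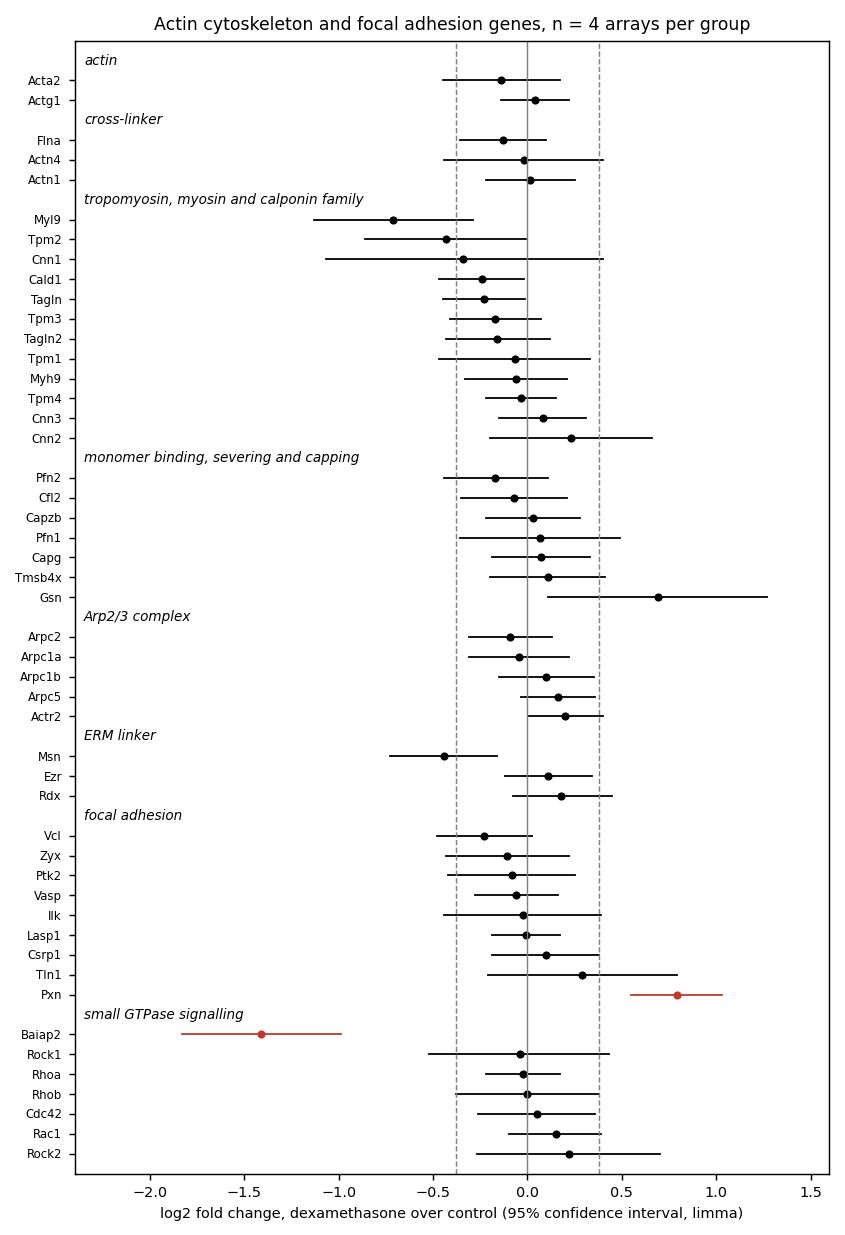
Log2 fold change of dexamethasone over control for the 48 genes by role, with the 95% confidence interval from limma (n = 4 arrays per group). Red marks Pxn (0.79) and Baiap2 (-1.41), whose adjusted p was under 0.05, and the dashed lines mark 1.3-fold.

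Paxillin is the scaffold of the focal adhesion plaque that recruits focal adhesion kinase and vinculin. The Pxn signal (arbitrary units, as all signals here) was 3933, 4740.0, 4024 and 4128 with dexamethasone. It was 2718, 2688, 2074 and 2291 in control. The groups did not overlap, and the lowest dexamethasone array was well above the highest control array. Pxn was 1.73-fold higher, a log2 fold change of 0.79 (SE 0.11, 95% interval 0.55 to 1.03, adjusted p = 0.00212, limma). The log2 fold change was 0.68 on the at-target arrays alone (adjusted p = 0.00688, limma) and 0.90 on the below-target arrays alone (adjusted p = 0.0654, limma). Without control replicate 3 it was 0.71 (adjusted p = 0.00412, limma). With the beta-actin ratio as a covariate it was 0.58 and no longer passed (adjusted p = 0.0733, limma).

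Baiap2 binds active Rac1 and Cdc42 and bends the membrane at filopodia and ruffles. On its strongest probe set the signal was 439, 552, 525 and 694 with dexamethasone. It was 1043, 1357, 1944 and 1601 in control. All 4 dexamethasone arrays lay below all control arrays. The log2 fold change was -1.41 (SE 0.19, 95% interval -1.83 to -0.99, adjusted p = 0.00185, limma), 2.66-fold lower with dexamethasone. A second probe set gave 271, 207, 285 and 319 with dexamethasone and 403, 572, 677 and 503 in control, a log2 fold change of -0.99 (adjusted p = 0.0128, limma). The third gave 252, 293, 242 and 231 with dexamethasone and 347, 357, 479.8 and 476 in control, a log2 fold change of -0.69 (adjusted p = 0.0351, limma). Thus the 3 probe sets of Baiap2 fell together without overlap, by different amounts. The strongest gave -1.27 on the at-target arrays alone (adjusted p = 0.00343, limma) and -1.55 on the below-target arrays alone (adjusted p = 0.0507, limma). Without control replicate 3 it gave -1.27 (adjusted p = 0.00532, limma). With the beta-actin ratio as a covariate the log2 fold change was -1.21 and missed the threshold (adjusted p = 0.0843, limma), as it did without the filter on low signals (adjusted p = 0.0505). On the signals as deposited, with no rescaling, neither Pxn (0.95, adjusted p = 0.824, limma) nor Baiap2 (-1.25, adjusted p = 0.339, limma) passed.

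**Figure D3:**
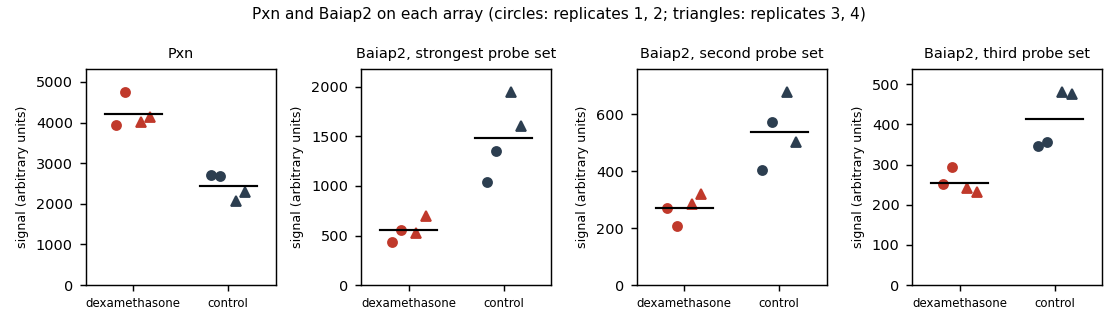
Signal of Pxn and of the 3 Baiap2 probe sets on each array (arbitrary units, linear axis), dexamethasone left and control right, with a bar at the mean of 4 arrays, circles for replicates 1 and 2 and triangles for replicates 3 and 4. In each panel the groups do not overlap, with Pxn higher and all Baiap2 probe sets lower with dexamethasone.

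Beside these, 2 genes were higher (Gsn and Actr2) and 5 lower (Tpm2, Myl9, Tagln, Cald1 and Msn) at an unadjusted p under 0.05 without passing the adjustment. With Pxn and Baiap2 this made 3 of 48 higher and 6 of 48 lower, against 7.96% and 8.16% of all probe sets, and they are given below as values. Groups without overlap were found in 2 genes that were higher (Pxn and Actr2) and 1 that was lower (Baiap2), against 5.57% and 5.46% of all probe sets.

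The actins themselves did not pass the test, nor did they reach an unadjusted p under 0.05. Actg1, cytoplasmic gamma-actin, had signals of 8212, 9526, 8563 and 9933 with dexamethasone. In control they were 8639.9, 8101, 9222 and 9281. The groups overlapped, and the log2 fold change of 0.038 had an interval of -0.14 to 0.22. Acta2, the alpha-actin of smooth muscle and myofibroblasts, had 537, 551, 388 and 449.7 with dexamethasone and 521, 596, 479 and 514 in control. Its log2 fold change was -0.14, with an interval of -0.45 to 0.17. Actb, cytoplasmic beta-actin, was read by 2 probe sets shared with Actg1 and a related locus, so no value is its own. The stronger of these had 10845, 10788, 10525 and 11478 with dexamethasone and 11116, 11660.1, 15184 and 10728 in control, with a log2 fold change of -0.14 (interval -0.37 to 0.077). Control replicate 3, the array with the high 3′ to 5′ ratio of beta-actin, was the highest there. The array's control probe sets for beta-actin, left out of the test, had this array highest at the 3′ end but not at the 5′ end. Their 3′ signals were 7808, 8281, 7177 and 8416 with dexamethasone and 7986, 8392, 13710 and 8059 in control. Their 5′ signals were 1012, 1215, 889.7 and 1364 with dexamethasone and 929.6, 1036, 1002 and 839.6 in control.

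Among the cross-linkers, which bundle filaments or join them into nets, none of 3 passed the test or reached an unadjusted p under 0.05. Actn1 (alpha-actinin 1) had 3998, 3971, 4569 and 3954 with dexamethasone and 3898, 3512, 4929.9 and 4072 in control. Its log2 fold change was 0.015, and a second, dimmer probe set gave 0.58 (interval -0.047 to 1.2). Actn4 (alpha-actinin 4) gave -0.019 and Flna (filamin A) -0.13.

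None of the 12 measured genes of the tropomyosin, myosin and calponin family passed the test, and their log2 fold changes ran between -0.71 and 0.23 with a median of -0.16. Myl9 is the regulatory light chain of non-muscle and smooth muscle myosin. Its signal was 385, 433, 705 and 423 with dexamethasone. In control it was 736, 639, 790.0 and 949.5. Dexamethasone replicate 3 alone reached into the control range. The log2 fold change was -0.71 (SE 0.19, adjusted p = 0.0799, limma). It was -0.75 on the at-target arrays and -0.67 on the below-target arrays, and with this division of the arrays, by their deposited scale, as a block in the fit it passed (adjusted p = 0.0262, limma), as it did without dexamethasone replicate 3 (-0.90, adjusted p = 0.0106, limma). With the beta-actin ratio as a covariate it was -0.49 (adjusted p = 0.612, limma).

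Tpm2 (beta-tropomyosin) had 407, 474, 379.7 and 296 with dexamethasone and 491, 653, 373 and 599 in control, a log2 fold change of -0.43 (adjusted p = 0.298, limma). Tagln (transgelin, an actin-binding protein of contractile cells) had 3457, 3815, 4375 and 3814 with dexamethasone and 4182, 4622, 4191 and 5158 in control, a log2 fold change of -0.23 (adjusted p = 0.285, limma). Cald1 (caldesmon, which holds back myosin on the filament) had 5657, 5796, 4789 and 4416 with dexamethasone and 6104, 5987, 6647 and 5601 in control, a log2 fold change of -0.24 (adjusted p = 0.266, limma). In each of these the groups overlapped, and a second Cald1 probe set gave 0.0052. Tpm4 had 5535, 5368, 6363 and 6332 with dexamethasone and 5739.8, 5814, 6254 and 6345 in control, with a log2 fold change of -0.036 inside an interval of -0.22 to 0.15. Its values separated by replicate rather than by treatment, with replicates 3 and 4 above replicates 1 and 2 in both groups.

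Tpm1, which gives rise to many tropomyosin isoforms, had changes of opposite sign on the at-target and the below-target arrays on its strongest probe set. It had 2233, 2710.5, 3892 and 3272 with dexamethasone and 3249.5, 3398, 2258 and 3732 in control. The log2 fold change was -0.43 on the at-target arrays and 0.30 on the below-target arrays, and neither passed. Tpm3 had 7 probe sets past the filter with log2 fold changes between -0.17 and 0.44, none of which passed. Its strongest had 2246, 2611, 2744 and 2872 with dexamethasone and 2623, 3397, 2809.5 and 2959 in control, while the one at 0.44 had 296, 472, 504 and 605 with dexamethasone and 472, 476, 131 and 427 in control. The single low value of that probe set was control replicate 3. The other genes of this family lay between -0.34 (Cnn1) and 0.23 (Cnn2). Cnn1, calponin 1 of smooth muscle, had 124, 94.7, 154 and 47.8 with dexamethasone and 142, 104, 148 and 101 in control, and only 1 of 8 arrays was above the level of genes of other tissues. Myl6, the essential light chain, was read with its relatives Myl6b and Myl6l and gave 0.026.

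Of the 7 genes that bind monomers or sever and cap filaments, none passed. Gsn, gelsolin, which severs filaments in the presence of calcium, had 1318, 1518, 577 and 752 with dexamethasone. It had 692, 660.2, 556 and 500.2 in control. The first and second dexamethasone arrays stood far above control and the third lay within it. The log2 fold change was 0.69 (SE 0.27, adjusted p = 0.222, limma), with 1.07 on the at-target arrays (adjusted p = 0.00187, limma) and 0.32 on the below-target arrays (adjusted p = 0.54, limma). With the division of the arrays as a block Gsn passed (adjusted p = 0.0307, limma), and with the beta-actin ratio as a covariate it gave 0.52 (adjusted p = 0.755, limma).

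Tmsb4x, thymosin beta 4, which holds actin monomers in reserve, had 4801, 5809, 7966 and 6272 with dexamethasone and 5235, 5976, 5084 and 6499.6 in control, a log2 fold change of 0.11 (interval -0.20 to 0.41). Pfn1 (profilin 1) gave 0.067, with -0.29 on the at-target arrays and 0.43 on the below-target arrays. The remaining genes, Cfl2, Pfn2, Capg and Capzb, lay between -0.17 and 0.073. The shared probe sets of Cfl1 (cofilin, which takes filaments apart), Tmsb10 and the stronger one of Dstn gave -0.19, 0.21 and 0.030. The second shared probe set of Dstn (destrin, a relative of cofilin) had 2672, 2365, 3336 and 3611 with dexamethasone and 2607, 2415, 1785 and 2525 in control, a log2 fold change of 0.36 (interval 0.016 to 0.70, adjusted p = 0.287, limma). It was 0.0025 on the at-target arrays and 0.71 on the below-target arrays, where both dexamethasone arrays lay above every control array.

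The Arp2/3 complex, the machine of several subunits that starts branches, was represented by 5 genes with log2 fold changes between -0.09 and 0.20, and none passed. Actr2 (Arp2) had 2854, 2903, 3084 and 2965 with dexamethasone and 2497, 2642, 2296 and 2840.5 in control. The groups did not overlap, by a narrow margin, and the log2 fold change was 0.20 (adjusted p = 0.298, limma). A second Actr2 probe set gave -0.0092 with overlapping groups. Arpc1b had 6193, 5441, 7358 and 7047 with dexamethasone and 5889.9, 5209.9, 6172 and 7019 in control, a log2 fold change of 0.099. The shared probe sets of Actr3 (Arp3) gave -0.017 and -0.094.

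Of the 3 linkers between filaments and the membrane, none passed. Msn, moesin, had 1887, 2304, 2654 and 2104 with dexamethasone. It had 2632, 2926, 3669 and 2944 in control. Only dexamethasone replicate 3 and control replicate 1 crossed. The log2 fold change was -0.44 (SE 0.13, adjusted p = 0.102, limma), -0.41 on the at-target arrays and -0.48 on the below-target arrays, and with the division of the arrays as a block it passed (adjusted p = 0.0417, limma). With the beta-actin ratio as a covariate it gave -0.22 (adjusted p = 0.733, limma). The second Msn probe set, of which the signals were 101, 159, 110.1 and 106 with dexamethasone and 86.6, 78.5, 129 and 70.7 in control, went the other way at 0.40 (adjusted p = 0.503, limma). These signals were below the level of genes of other tissues on every array. Ezr, ezrin, the linker of microvilli, had 3399.8, 3935, 3335 and 4239 with dexamethasone and 3328, 3595, 3097 and 3794 in control, a log2 fold change of 0.11 (interval -0.12 to 0.34). Rdx (radixin) gave 0.18.

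**Figure D4:**
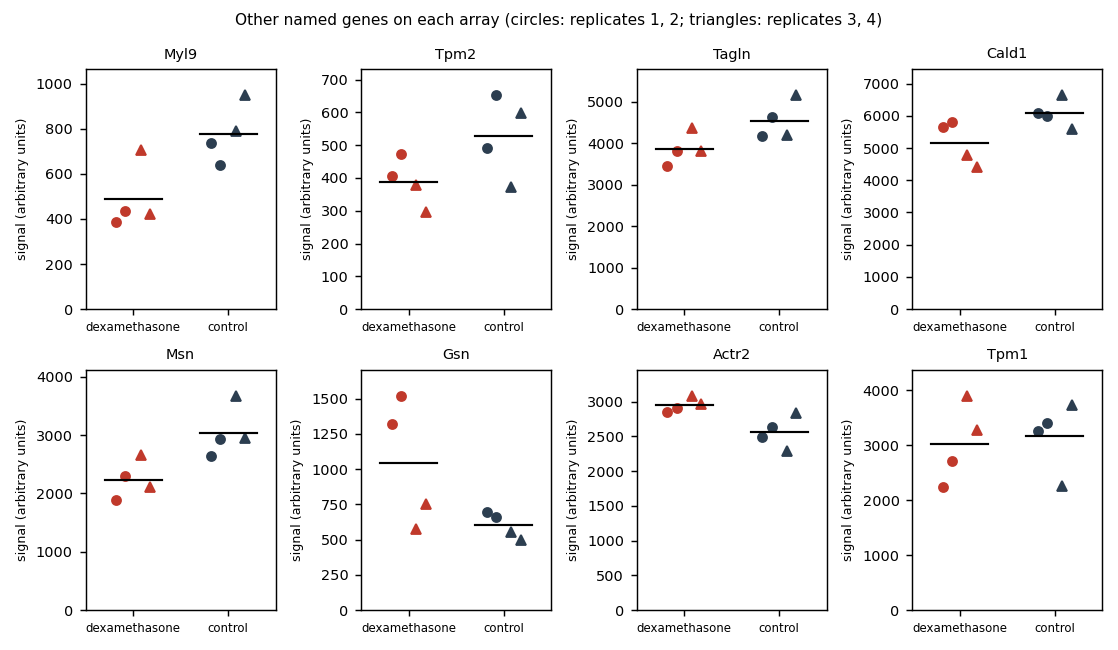
Signal on each array (arbitrary units, linear axes from 0) of the 7 genes with an unadjusted p under 0.05 that did not pass the adjustment and of Tpm1, dexamethasone left and control right, with a bar at the mean of 4 arrays, circles for replicates 1 and 2 and triangles for replicates 3 and 4. Only the Actr2 groups are free of overlap, Gsn is high in dexamethasone replicates 1 and 2, and the Tpm1 circles and triangles run in opposite directions.

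Among 9 focal adhesion genes only Pxn passed. Vcl, vinculin, which couples talin to actin under tension, had 3887, 3518, 4799 and 4722 with dexamethasone and 4518, 5159, 4598 and 5446 in control, a log2 fold change of -0.23 (interval -0.48 to 0.022). Its second probe set gave -0.057. Tln1 (talin 1), Zyx (zyxin), Ptk2 (focal adhesion kinase), Ilk (integrin-linked kinase), Vasp, Lasp1 and Csrp1 lay between -0.11 and 0.29, so that the scaffold was the single plaque component of this list whose transcript passed. Whether Pxn differed from the other plaque genes in its response was not tested.

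Among 7 genes of small GTPase signalling only Baiap2 passed. The GTPases Rhoa, Rhob, Rac1 and Cdc42 lay between -0.025 and 0.15. Rac1 had 5995, 6023, 5580.2 and 6444 with dexamethasone and 4815, 4875, 6867 and 5337 in control, with a log2 fold change of 0.31 on the at-target arrays and -0.014 on the below-target arrays. Rock2, a kinase that acts below RhoA, gave 0.22, and a second probe set gave 0.35 (adjusted p = 0.18, limma). Rock1 had 118, 108, 94.5 and 83.4 with dexamethasone and 118, 90.0, 111 and 95.8 in control. It was above the level of genes of other tissues on none of the 8 arrays, so its log2 fold change of -0.042 says little about the transcript.

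In 19 of the 48 genes the log2 fold change had opposite signs on the at-target arrays and on the below-target arrays, against 38.5% of all probe sets, a share close to theirs. With that division of the arrays as a block, 2 genes rose (Pxn and Gsn) and 3 fell (Baiap2, Myl9 and Msn), against 3.32% and 2.26% of all. On the at-target arrays alone Pxn and Gsn rose and Baiap2 and Myl9 fell (all probe sets, 2.76% and 1.49%). On the below-target arrays alone 0 of the 48 genes and 0.203% of all passed in limma. With the beta-actin ratio as a covariate, which this fit cannot tell apart from treatment, 0 genes passed in limma, against 0.627% of all. Control replicate 3 was the lowest of the 8 arrays on 9 of the 48 strongest probe sets and on 13 of the 24 weaker probe sets of the same genes, against 21.7% of all probe sets, and the highest on 11 of 48 and 6 of 24, against 23.5%. The weaker probe sets are not all of separate genes, and several of the 13 read Tpm3.

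**Figure D5:**
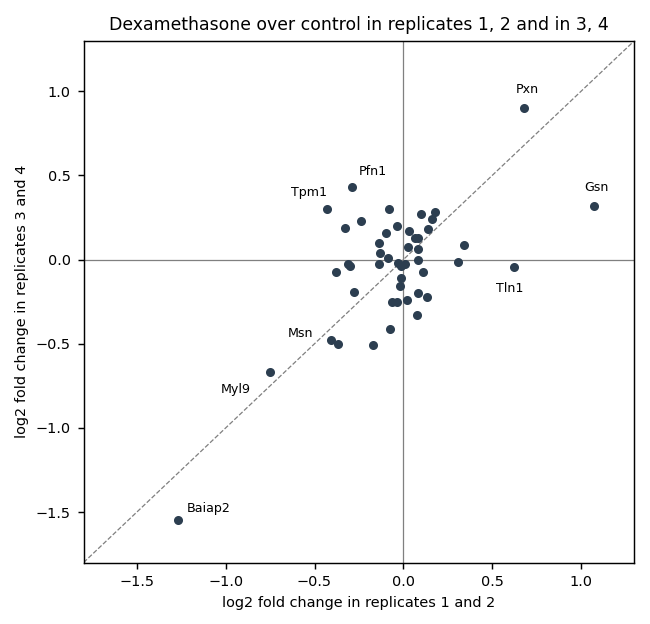
Log2 fold change of dexamethasone over control in replicates 3 and 4 against that in replicates 1 and 2 (below-target against at-target arrays), 1 point per gene (48 genes), with equality as the dashed line. Pxn and Baiap2 lie near the line at both ends, Gsn is at 1.07 on the at-target and 0.32 on the below-target arrays, and 19 genes fall in the quadrants of opposite sign.

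A wider list of genes around these was read in the same way. Of 90 tested that are outside the set, 5 rose and 2 fell, 7.78% in all, against 2.69% of all probe sets (1.88% higher and 0.81% lower). The list was drawn up with earlier results of these data known, and its share was not tested. None of 7 tested integrins passed or reached an unadjusted p under 0.05, and their log2 fold changes ran between -0.23 and 0.19. Of 21 other adhesion adaptors 2 fell. Palld, palladin, a scaffold of stress fibres, had 1062, 1159, 1695 and 1472 with dexamethasone and 2050.4, 2318, 1918 and 2207 in control, a log2 fold change of -0.68 (adjusted p = 0.0297, limma). Tes, testin, a partner of zyxin, had 2749.7, 3213, 3959 and 3325 with dexamethasone and 3929.6, 5162, 5359.9 and 4804 in control, a log2 fold change of -0.54 (adjusted p = 0.0455, limma). The Palld groups did not overlap, and those of Tes crossed at 1 array of each.

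Of 32 other regulators of actin 1 rose. Limk2, the kinase that switches cofilin off, had 1014, 1059.8, 1011 and 991 with dexamethasone and 756, 665, 769 and 813 in control, a log2 fold change of 0.44 (adjusted p = 0.0473, limma). Of 19 other regulators of myosin and small GTPases 3 rose. Mylk, the kinase of the myosin light chain, had 474, 591, 555 and 642 with dexamethasone and 264, 242, 274 and 350.1 in control, a log2 fold change of 1.01 (adjusted p = 0.00339, limma). Mylk is also on the list of smooth muscle markers. Its substrate Myl9, described above, gave -0.71 without passing. Rhou, an atypical Cdc42 relative, had 2447, 2634, 2365 and 2499 with dexamethasone and 1879, 1813, 1932 and 1920.5 in control, a log2 fold change of 0.40 (adjusted p = 0.0294, limma). Cdc42ep3, an effector of Cdc42 that binds septins, had 1277, 1347, 1089 and 1306 with dexamethasone and 803, 834, 559.7 and 741 in control, a log2 fold change of 0.78 (adjusted p = 0.0102, limma). A last list held serum response factor, its cofactors Mrtfa and Mrtfb, and targets of it and of YAP. Of 18 tested genes on it, 7 belong to the set above and 1 rose. This was Fos, an immediate early gene, with 2188, 2511, 1599 and 2323 with dexamethasone and 1095, 984, 519 and 938 in control, a log2 fold change of 1.32 (adjusted p = 0.00712, limma).

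These 7 calls did not hold equally under other choices. Mylk, Cdc42ep3 and Fos passed whichever 1 array was left out. Without the filter on low signals, Mylk (adjusted p = 0.0392, limma), Limk2 (adjusted p = 0.0409) and Rhou (adjusted p = 0.0132) passed. Cdc42ep3 (adjusted p = 0.0713, limma), Fos (adjusted p = 0.0902), Palld (adjusted p = 0.129) and Tes (adjusted p = 0.168) did not. Limk2 no longer passed without any 1 of the 8 arrays (adjusted p between 0.0536 and 0.132, limma), nor with the replicate number as a block (adjusted p = 0.0514) or with median centring (adjusted p = 0.053). With 1 array left out, Rhou passed only where that was control replicate 3 (adjusted p between 0.0278 and 0.101 over the 8 fits, limma). Tes then passed only without control replicate 1 or without dexamethasone replicate 3 (adjusted p between 0.0245 and 0.132, limma), and Palld only without control replicate 3 or dexamethasone replicate 3 or 4 (adjusted p between 0.0106 and 0.0969, limma). With the beta-actin ratio as a covariate, which this fit cannot tell apart from treatment, none of the 7 passed in limma. Mylk then gave a log2 fold change of 0.98 (adjusted p = 0.0843), Cdc42ep3 0.46 (adjusted p = 0.251) and Fos 0.72 (adjusted p = 0.117). Limk2 gave 0.51 (adjusted p = 0.222) and Rhou 0.41 (adjusted p = 0.218). Palld gave -0.77 (adjusted p = 0.181) and Tes -0.42 (adjusted p = 0.47). Without 1 array the count that passed ran between 3 and 9.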

How the data were processed

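Total RNA was amplified by the authors in 2 rounds of in vitro transcription for Affymetrix rat 230A arrays. The deposited values are signal intensities on a linear scale, made by the authors with the Affymetrix statistical algorithm and, per the labels, scaled to a target of 500. The table holds 15923 probe sets, 57 of them controls, for 8 arrays, all assigned to samples. Replicates 3 and 4 were below the target, so each array was multiplied by 1 factor to reach 500 for the mean trimmed by 2% at each end. After a floor of 16, signals were put on the log2 scale. Probe sets with a mean of at least 100 were tested (10368 of 15866) with limma 3.58.1 in R 4.3.3 (lmFit, eBayes with trend), two-sided, adjusted by Benjamini-Hochberg over all. The study's median of signal log ratios needs probe-level values, which were not used here. Probe-set genes came from the platform annotation (12792 with 1 symbol, 303 with several, 2771 with none).

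Given with the value on every array were, among the 48 genes, those with an adjusted or unadjusted p under 0.05, the strongest of each role, the actins, and those whose probe sets disagreed or were dim, and from the wider list those with an adjusted p under 0.05. Tpm1, Rock2 and Pfn1 were picked out after their values were seen. The second shared probe set of Dstn was also given on every array, outside this rule. The members, lists and rules were chosen with earlier results of these data known. The test was tried on simulated data first. The alternatives covered scaling, filter, floor, eBayes settings, blocks, replicate pairs, the beta-actin ratio, the mean of a gene's probe sets, and leaving out each array. The number of arrays limits the precision.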

Additional observations from a re-analysis of the deposited data

Results flagged for a closer look

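Of 110 groups of 4 signals examined (55 genes, 2 groups each), 6 had 1 array apart from the other 3 by Dixon's criterion, where chance alone gives about 1 in 20. Actn1 was at 4569.3 on dexamethasone replicate 3, against 3953.6 to 3998.2 on the other dexamethasone arrays. Actn4 was at 1898.9 on dexamethasone replicate 2, against 1221.8 to 1286.3. Rdx was at 827.3 on dexamethasone replicate 2, against 893.2 to 903.8. Myh9 was at 1443.1 on control replicate 1, against 1279.9 to 1298.7 on the other control arrays. Ptk2 was at 686.7 on control replicate 4, against 505.5 to 526.1. Rhob was at 424.6 on control replicate 3, against 596.6 to 635.3. None of these 6 genes passed the test between the groups in limma.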

How the results depend on the processing

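The count of all probe sets passing was 279, with 195 higher and 84 lower. It was 578 with the deposited scale of the arrays as a block, 65 with the beta-actin ratio as a covariate, 102 without the filter, 440 in replicates 1 and 2 alone, 21 in replicates 3 and 4 alone, 38 on signals as deposited, and 180 to 275 without 1 array. Genes of the set called higher (1) became 2 with the scale block and in replicates 1 and 2, and 0 with the covariate, in replicates 3 and 4 and as deposited, and 1 whichever array was left out. Genes called lower (1) became 3 with the scale block, 2 in replicates 1 and 2, 0 with the covariate, without the filter, in replicates 3 and 4 and as deposited, and 1 to 2 without 1 array (2 without dexamethasone replicate 3, Myl9 being the second). The median log2 fold change of the set was 0.14 as deposited, where the scale of the arrays is not levelled, and -0.030 to 0.019 without 1 array. The 7 calls among other pathway genes became 13 with the scale block, 17 in replicates 1 and 2, 3 without the filter or without the trend, 0 with the covariate, in replicates 3 and 4 and as deposited, and 3 to 9 without 1 array. The p of the beta-actin ratio was 0.0571 without any 1 array, the smallest that 4 against 3 allow. For single named genes, 295 values under the alternatives kept their direction and side of the threshold, 65 kept their direction but no longer passed and 8 newly passed. The causes were not tested.

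Same-numbered arrays deviated together with correlations of 0.352, 0.252, 0.0347 and 0.406. Unlike numbers gave 0.326 and 0.000734 within the at-target arrays, and 0.43 and -0.0257 within the below-target arrays. Between at-target and below-target arrays the correlations ran from -0.408 to 0.0743. The sources do not say that arrays of the same number are pairs, so the numbers were not taken as pairs. Not every array correlated best with its own number. With the replicate number as a block 484 probe sets passed, with 1 gene of the set higher (Pxn), 3 lower (Baiap2, Myl9 and Msn) and 11 of the other pathway genes. No alternative turned the sign of a call.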
